A study of Mus musculus with 18 samples.

Results

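Intronless protein-coding genes are annotated with their whole message in 1 exon, without an intron to splice. They were taken from the GENCODE vM1 annotation of the mouse genome build mm9 as every protein-coding gene whose annotated transcripts all have a single exon. Genes with symbols that start with Hist, H1f, Hils, Rpl, Rps, Olfr, Actl, Actrt, Adam or Tssk and 9 well-known testis genes were left out by name, so that histone variant genes named H2af remained. Of 37310 annotated genes, 22380 were protein-coding, 2858 of these had a single exon, and 1790 remained. A gene had a value where an assembled single-exon transcript lay at least 50% in its exon, on its strand or without a strand. This was so for 534 of them in at least 1 library. The other 1256 had no value, 13 of these with a spliced transcript over the exon and 13 with only a longer single-exon one. The 1790 include 13 genes of the mitochondrial genome, of which 9 had no value and 0 entered the test below. Longer transcripts lay over mitochondrial genes such as mt-Nd1 and mt-Co1, and this rule leaves them out. Levels are FPKM, the number of sequenced fragments scaled to transcript length and to the size of the library. The test took the 396 genes that reached 1 FPKM in 3 libraries or more. These were 22.1% of the intronless genes, while 61.5% of all protein-coding genes passed the same filter. Spliced genes were measured by another rule, from spliced transcripts that share an annotated intron. Levels and shares of intronless genes and of all genes are therefore not on like measures, here and below.

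The libraries hold large RNA from 3 kinds of germ cell of wild-type adult C57BL/6 mice, namely spermatocytes at the pachytene stage of meiosis and the round and elongating spermatids that follow. The cells had been sorted by size from pooled testes in the presence of cycloheximide, which holds ribosomes on their messages. The authors estimated purity from cell morphology, and it was clearly lowest for elongating spermatids, so other cells add to those libraries. Cytoplasm of each cell type was run on a sucrose gradient, and RNA was taken from the light ribonucleoprotein particle (RNP) fractions and from the heavy polysome fractions. There were 3 replicate libraries in each of the 6 groups, 18 in all, and no treatment or mutant was compared.

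Many intronless genes of the testis are retrocopies: a spliced message of a parent gene was reverse-transcribed and inserted elsewhere in the genome without its introns. Parents on the X chromosome are frequent among them, and the X chromosome is silenced in meiosis. Spermatids also store messages in RNPs and translate them later, when the nucleus condenses and transcription stops. A polysome level above the RNP level is therefore commonly read as a sign of translation.

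The coding starts of 5 retrocopies are shown beside those of a spliced relative because levels of copies and relatives are compared below, and because reads from near-identical stretches can be assigned to either gene. Each line gives the initial 30 coding bases on the mm9 genome, 5′ to 3′, and capitals in the copy mark bases that differ from the relative named on the line below it.
Gk2 (glycerol kinase 2, copy): atggcagccTcgaagCaaAcCTCtGCgggA
Gyk (relative on X): atggcagccgcgaagaaagcagttctgggg
Prps1l1 (phosphoribosyl pyrophosphate synthetase, copy): atgccAaaCatcaaaCtcttcagcggAagc
Prps1 (relative on X): atgccgaatatcaaaatcttcagcgggagc
Oxct2a (succinyl-CoA transferase, copy): atggcggcGctGaGGctTctgGcctGGgCg
Oxct1 (relative): atggcggctctcaaactcctgtcctctggg
Pabpc6 (poly(A)-binding protein, copy): atgaaccccagcgAccccagctacTcTTtg
Pabpc1 (relative): atgaaccccagcgcccccagctaccccatg
Zcchc13 (zinc knuckle protein, copy on X): atgagcagTaaAAGTtgcttcaagtgtgga
Cnbp (relative): atgagcagcaacgaatgcttcaagtgtgga
Over these 30 bases Gk2 differed from Gyk at 9, Prps1l1 from Prps1 at 4, Oxct2a from Oxct1 at 9, Pabpc6 from Pabpc1 at 4 and Zcchc13 from Cnbp at 5. Oxct2a and Oxct2b differed from each other at 0. Over the whole coding sequence identity was 98.5% between Oxct2a and Oxct2b, so the values of this pair cannot be told apart with certainty. It was 91.8% between Aldoart2 and Aldoa, 86.9% between Prps1l1 and Prps1, 83.4% between Pabpc6 and Pabpc1, 80.6% between Gk2 and Gyk, 74.3% between Zcchc13 and Cnbp, 68.4% between Oxct2a and Oxct1, 61.9% between Ubl4b and Ubl4 and 60.3% between Hmgb4 and Hmgb1. Zfa, a copy of the X-linked zinc finger gene Zfx, stood at 97.7%, and its values are uncertain for the same reason.

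Each library had been assembled on its own, without counts, so the depth is unknown and a gene without an assembled transcript is listed at 0. Between 26773 and 109864 transcripts were assembled per library. The replicate 2 libraries of pachytene spermatocytes and round spermatids stood apart in both fractions: their summed FPKM over the elongating spermatid markers was 56.3 and 42.5 in pachytene and 87.6 and 128 in round cells, against 346 to 4995 in the other libraries of these 2 cell types and 7741 to 32432 in elongating spermatids. The sum over round spermatid markers was 54.2 and 67.1 in the round replicate 2 libraries and 387 to 1197 in the other 4. Sertoli cell markers summed to 1147, 921, 922 and 2044 in these 4 libraries and to 1121 in the polysome library of pachytene replicate 3, but to between 12.4 and 30.3 in elongating spermatids. Among intronless genes with at least 5 FPKM in 1 of the group's libraries, round replicate 2 lay under 0.5 times both other libraries for 95 of 224 in RNPs and 111 of 266 in polysomes. The fits were repeated without the 4 replicate 2 libraries of pachytene and round cells, and values from the repeat are given beside results below. This repeat was not planned, and the libraries were left out because of their values. It leaves fewer libraries in these groups. The spread of a gene is shared over all groups, so standard errors and calls change in elongating cells too. Calls in the repeat are therefore no independent support. Their part in the results was not otherwise tested.

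Intronless genes, measured by single-exon transcripts alone, had lower FPKM than genes at large, where spliced genes were measured by spliced transcripts. The median of their mean FPKM over the 18 libraries was 4.82, against 9.45 over all 14665 genes tested. A value in all 18 libraries was found for 95 of the 396, and 83 had one in only 3 to 5. The mean was above 100 FPKM for 28 of them and below 10 for 259. By median, 140 were highest in elongating spermatid polysomes, 107 in pachytene polysomes and 64 in round spermatid polysomes, while 32, 21 and 15 were highest in the RNPs of elongating spermatids, pachytene spermatocytes and round spermatids. These counts do not cover all 396 genes, and the shares over all genes were not counted. Genes at large were also higher in polysomes, with median log2 differences of 1.01, 0.65 and 0.71 in pachytene, round and elongating cells.

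**Figure D1:**
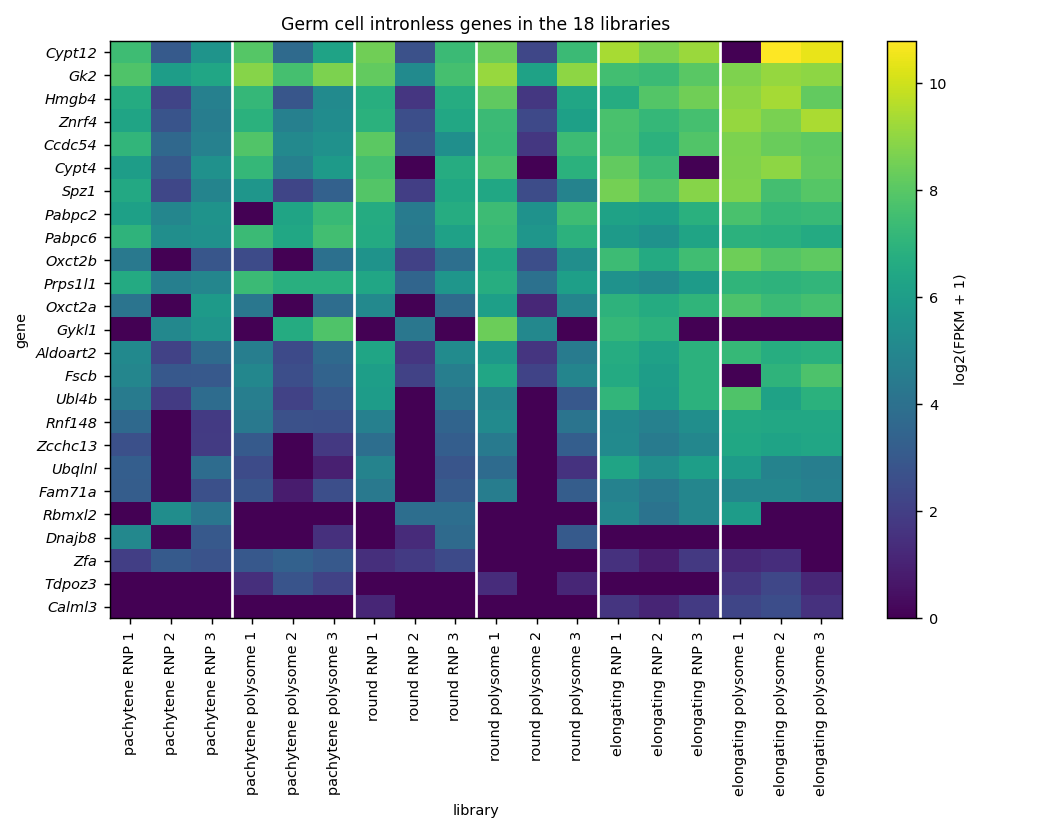
Levels of the tested intronless genes of the germ cell list in every library, as log2(FPKM + 1), with genes as rows and the 18 libraries as columns grouped by cell type and fraction. Most rows are brightest in the 6 elongating spermatid libraries, and the replicate 2 columns of pachytene and round cells are dark in many rows.

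The germ cell list (retrocopies and other single-exon testis genes) held 32 intronless genes, of which 28 had a value and 25 were tested. Gk2 (chr5:97884180-97886027, minus strand) overlaps the span of 4930467D21Rik and makes the testis form of the enzyme that phosphorylates glycerol. It had FPKM values of 227, 63 and 83.9 in pachytene RNPs and 450.3, 193 and 406 in pachytene polysomes. In round spermatids it stood at 297, 35 and 197 in RNPs and 558, 73.6 and 491 in polysomes. In elongating spermatids it stood at 186, 164 and 258 in RNPs and 422, 551 and 497 in polysomes. Only in elongating spermatids did the Gk2 fractions not overlap, where polysomes lay wholly above RNPs for 36.9% of all genes. A polysome minus RNP difference above 0 was found for 86.0, 78.0 and 76.5% of all genes in pachytene, round and elongating cells. The polysome minus RNP difference of Gk2 was 1.62 ± 0.82 (SE, log2 scale) in pachytene spermatocytes, 1.09 ± 0.82 in round and 1.29 ± 0.82 in elongating spermatids, and none passed the test (limma, Benjamini-Hochberg adjusted p = 0.207, 0.539 and 0.401). Without the pachytene and round replicate 2 libraries the differences were 1.62 ± 0.52, 1.11 ± 0.52 and 1.29 ± 0.42 and none passed (limma, adjusted p = 0.0603, 0.286 and 0.0804). All log2 differences here are on log2(FPKM + 1), which understates the change of low genes.

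Hmgb4, a testis member of the HMG-box family of chromatin proteins (chr4:127937457-127938139, minus strand), was at 145, 6.46 and 34.7 FPKM in pachytene polysomes, 286, 2.33 and 82.5 in round polysomes and 477, 645 and 297 in elongating polysomes. In RNPs it was at 98.3, 3.59 and 25, then 107, 2.31 and 100.3, then 103, 239.8 and 355. These values leave out spliced transcripts over the Hmgb4 exon, which stood at 445, 159 and 319 in elongating RNPs, 1176, 617 and 1508 in elongating polysomes and 0 in all pachytene libraries. H2afb1, a short histone H2A variant of the testis (chr2:17918049-17918573, minus strand), was at 127, 0 and 18.3 in pachytene polysomes and 1046, 736 and 795 in elongating polysomes. For both genes every elongating polysome library was above every pachytene one, as for 15.9% of all genes. The elongating minus pachytene difference in polysomes was 3.74 ± 1.59 for Hmgb4 and 5.97 ± 2.09 for H2afb1 and did not pass the test (limma, adjusted p = 0.159 and 0.0955). When the 4 libraries that stood apart were left out, Hmgb4 differed by 2.65 ± 0.82 and missed the threshold, and H2afb1 by 4.10 ± 0.91 and passed it (limma, adjusted p = 0.0675 and 0.0195).

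Spz1, a testis bHLH transcription factor (chr13:93344586-93346187, minus strand), did not have a higher level in elongating polysomes than in elongating RNPs: its values were 433, 188 and 243 FPKM in polysomes and 373, 224 and 451 in RNPs. The groups overlapped, and the difference was -0.31 ± 1.36. Its RNP level was 89.9, 3.88 and 28.3 in pachytene spermatocytes. Gsg2 (chr11:72948987-72951796, minus strand), which makes the histone H3 kinase haspin, overlaps the span of Itgae. It was at 135, 26.8 and 55.8 FPKM in pachytene RNPs and 113, 42.7 and 56.3 in pachytene polysomes, and at 218, 157 and 186 in elongating polysomes. Both fractions of Gsg2 overlapped in every cell type.

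Retrocopies of metabolic enzymes fell into patterns that differed by cell type. Prps1l1 (chr12:35669433-35671108, plus strand), for the synthesis of the nucleotide precursor PRPP, was at 163, 112 and 109.9 FPKM in pachytene polysomes, 105, 15.1 and 66.8 in round polysomes and 133, 125 and 135 in elongating polysomes. Oxct2b (chr4:122793507-122795192, plus strand), which makes a sperm form of the enzyme that activates ketone bodies, was at 4.52, 0 and 14.8 in pachytene polysomes, 85, 4.96 and 39 in round polysomes and 339, 242 and 278 in elongating polysomes. Its near-twin Oxct2a (chr4:122999118-123000877, minus strand) was at 18.3, 0 and 13.6, then 67.3, 1.31 and 29, then 222, 165 and 192. Prps1l1 thus had overlapping polysome levels in pachytene spermatocytes and elongating spermatids, with a difference of 0.05 ± 0.74, whereas those of Oxct2b and Oxct2a did not overlap. Oxct2b rose by 6.00 ± 1.19 from pachytene to elongating polysomes (limma, adjusted p = 0.0133). Oxct2a differed by 4.87 ± 1.55 and missed the threshold (limma, adjusted p = 0.0709). Oxct2b also lost the call without pachytene polysome replicate 2. When an assembled transcript had to lie at least 90% in the exon, the Oxct2b difference turned to -1.33 (adjusted p = 0.582). In the fit without the pachytene and round replicate 2 libraries, it was 4.93 ± 0.65 (limma, adjusted p = 0.00242).

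Aldoart2, a copy of the glycolytic enzyme aldolase A (chr12:56666226-56667883, plus strand), was at 23.4, 4.36 and 11.8 FPKM in pachytene polysomes and 151, 104 and 116 in elongating polysomes. The difference of 3.38 ± 1.11 missed the threshold with all libraries (limma, adjusted p = 0.0798) and passed without the pachytene and round replicate 2 libraries, at 2.81 ± 0.56 (limma, adjusted p = 0.0129). Sephs2, which makes the selenium donor for selenoproteins (chr7:134416075-134417433, minus strand), was at 226, 187 and 355 in pachytene polysomes and 169.8, 165 and 0 in elongating polysomes. The 0 of Sephs2 in elongating polysome replicate 3 stood beside a longer single-exon transcript over the exon at 155 FPKM.

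Among genes of protein folding and turnover, Znrf4, a ubiquitin ligase of the endoplasmic reticulum membrane (chr17:56650671-56651906, minus strand), was at 119.7, 25.4 and 37.6 FPKM in pachytene polysomes and 537, 396 and 687 in elongating polysomes. Ubl4b, a testis copy of a ubiquitin-like protein gene (chr3:107356616-107357991, minus strand), was at 23.3, 3.41 and 7.01 and at 228, 74.5 and 117. Rnf148, a RING finger gene, was at 19.6, 5.45 and 5.14 and at 91.5, 88.5 and 86.6, and the co-chaperone gene Dnajb7 was at 20.4, 1.75 and 5.03 and at 109, 88.2 and 75.4. For each of these 4 genes every elongating library was above every pachytene one, as for 23.5% of the intronless genes and 15.9% of all genes. With all libraries Znrf4 (3.41 ± 1.22) and Ubl4b (3.74 ± 1.32) missed the threshold (limma, adjusted p = 0.102 and 0.0973), as did Rnf148 (3.26 ± 1.25) and Dnajb7 (3.68 ± 1.27; limma, adjusted p = 0.123 and 0.0915), and without the pachytene and round replicate 2 libraries Znrf4 (2.95 ± 0.63), Ubl4b (3.18 ± 0.78), Rnf148 (3.0 ± 0.64) and Dnajb7 (3.0 ± 0.59) passed it (limma, adjusted p = 0.017, 0.0288, 0.0177 and 0.012). Hspb9, a small heat shock protein gene, was at 905, 415 and 282 in elongating RNPs and 0, 263 and 449.7 in elongating polysomes, and its 0 stood beside a longer transcript at 226 FPKM.

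Among RNA-binding proteins, Pabpc6 (chr17:9859362-9862569, minus strand) was at 163, 86.3 and 182 FPKM in pachytene polysomes, 152, 50.5 and 120.2 in round polysomes and 121, 115 and 96 in elongating polysomes. D1Pas1, an autosomal copy of a DEAD-box RNA helicase gene (chr1:188791295-188794506, plus strand), was at 42.5, 40 and 46.5, then 38.9, 26.1 and 39.3, then 66.3, 52.9 and 38.6. Pachytene and elongating values overlapped for both genes. From pachytene to elongating polysomes Pabpc6 differed by -0.31 ± 0.62 and D1Pas1 by 0.26 ± 0.47 (limma, adjusted p = 0.793 and 0.775).

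Retrocopies were set beside their spliced relatives on the FPKM scale, which is per length of transcript, over all 18 libraries and with no test. Gk2 had a median of 242 FPKM (range 35.0 to 558) and X-linked Gyk one of 30.7 (7.63 to 2445). Prps1l1 had a median of 74.7 (10.3 to 163) and X-linked Prps1 one of 10.2 (3.49 to 99.6). Ubl4b had a median of 22.3 (0 to 228) and X-linked Ubl4 one of 6.05 (3.0 to 13). These 3 autosomal copies of X-linked genes had the higher median, with overlapping ranges, and within a library they were higher in 16, 15 and 14 of the 18. The other 5 copies with an X-linked relative had the lower median: Gykl1 (9.34, against 30.7 for Gyk), Rbmxl2 (0, against 6.73 for Rbmx), G6pd2 (0, against 14.8 for G6pdx), Nkapl (0, against 1.11 for Nkap) and Zfa (2.19, against 5.03 for Zfx). They were higher than the relative in 6, 8, 2, 0 and 5 of the 18 libraries. These values leave out longer and spliced transcripts over the exon of the copy. Nkapl had longer ones at 31.1, 9.88 and 7.70 FPKM in pachytene RNPs and 55.1, 27.9 and 73.4 in pachytene polysomes. Rbmxl2 had longer ones at up to 20.5, and Gykl1 had spliced ones at a mean of 322 in elongating polysomes. Whether Nkapl, Rbmxl2 and Gykl1 lie below their relatives is therefore uncertain. Hmgb4 (median 101, 2.31 to 645) was also above Hmgb1 (28.5, 0 to 234). Pabpc6 (91.2) lay below Pabpc1 (186), Aldoart2 (34.9) below Aldoa (74.1) and Pcbp1 (6.76) below Pcbp2 (86.6). Oxct2a (30.9) was above Oxct1 (21.1) in 11 of 18 libraries.

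**Figure D2:**
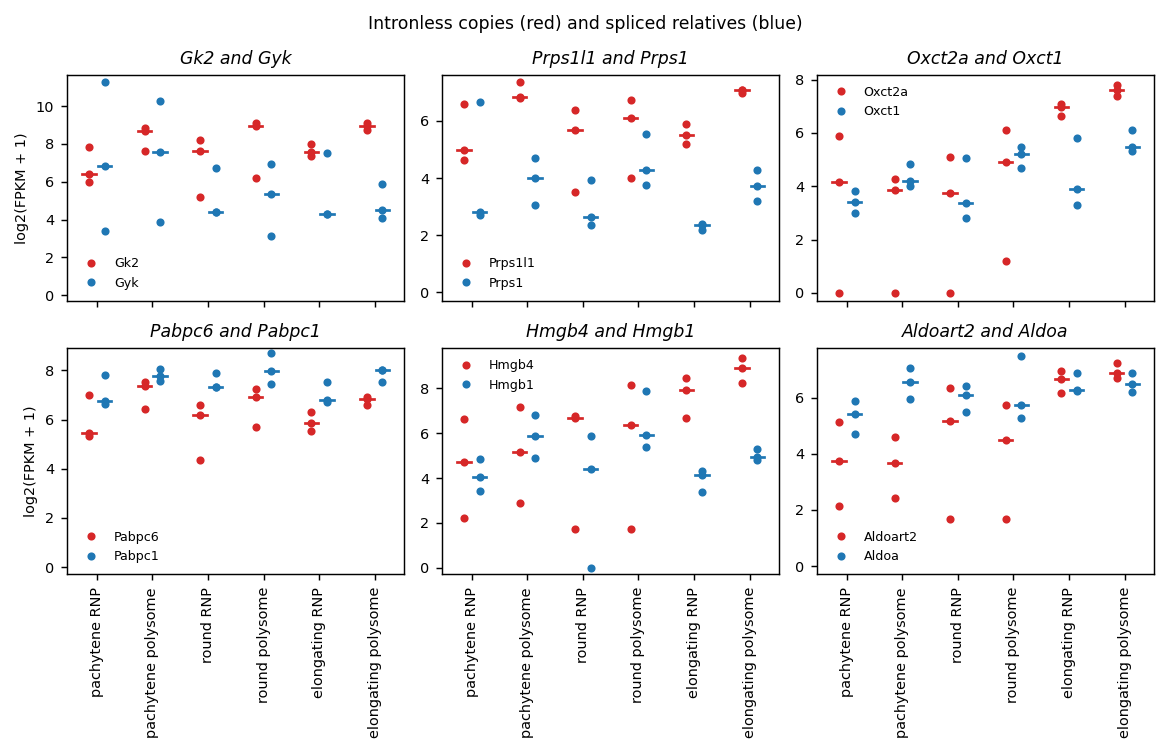
Levels of intronless copies and their spliced relatives in the 6 groups, as log2(FPKM + 1), with 1 panel a pair and 1 point a library. Short lines mark group medians. Gk2 lies above Gyk in 16 of 18 libraries and Prps1l1 above Prps1 in 15, while Pabpc6 lies below Pabpc1 in all 18.

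In pachytene spermatocytes 12 of the 396 intronless genes passed the test between polysomes and RNPs, 9 of them higher in polysomes and 3 lower. The background was 6.34% of all genes tested, and 3.03% of the intronless genes were called. Without pachytene RNP replicate 1 the number was 26 (10.7% of all genes) and without round polysome replicate 2 it was 24 (10.9%). It was 3 (2.56%) and 0 (0.211%) without pachytene RNP replicates 2 and 3, and 4 (0.709%), 5 (1.08%) and 5 (0.955%) without pachytene polysome replicates 1, 2 and 3. Without elongating polysome replicates 2 and 3 it was 7 (2.83%) and 7 (2.78%). The share of all genes called thus moved with these libraries too. Sf3b5, a small subunit of the splicing factor SF3b and itself intronless (chr10:12728256-12728988, plus strand), was at 27.9, 18 and 10.1 FPKM in RNPs and 80.3, 85.9 and 49 in polysomes, with no overlap. It was higher in polysomes by 1.95 ± 0.42 (limma, adjusted p = 0.0252). Ndnl2 (chr7:72011938-72017883, minus strand), a MAGE family gene with a role in the SMC5/6 complex, overlaps the span of Fam189a1. It was at 11.4, 6.68 and 3.7 in RNPs and 29.3, 21 and 30.4 in polysomes. It was higher by 1.85 ± 0.47 (limma, adjusted p = 0.0369), and 2310047M10Rik was higher by 1.5 ± 0.41 (limma, adjusted p = 0.0437). Without the pachytene and round replicate 2 libraries Sf3b5 was higher by 1.83 ± 0.47 and Ndnl2 by 2.01 ± 0.49 (limma, adjusted p = 0.0354 and 0.0303).

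The other calls in pachytene spermatocytes mostly compared values with 0. Olig1, a bHLH transcription factor of the oligodendrocyte lineage (chr16:91270014-91272184, plus strand), was listed at 0 in the 3 RNP libraries and at 6.98, 6.87 and 2.93 FPKM in polysomes (limma, adjusted p = 0.0303). Tdpoz3, a TRAF domain gene of the germ cell list, was listed at 0 in RNPs and at 1.72, 5.97 and 3.39 in polysomes (limma, adjusted p = 0.0278). In the other direction Gm9964 was at 5.69, 34.3 and 71.5 in RNPs and listed at 0 in the polysomes of all cell types (limma, adjusted p = 0.0182). Exoc8, of the exocyst that tethers vesicles, was at 3.42, 54.1 and 24.6 in RNPs and 0, 0 and 3.12 in polysomes (limma, adjusted p = 0.0333), values that add up several assembled pieces of a long exon. Gm10638 was at 16.9, 4.62 and 7.64 in RNPs and listed at 0 in polysomes, where longer transcripts over its exon stood at 6.92, 8.88 and 4.90 FPKM. Gm10638 lost its call when spliced and longer transcripts over the exon were added. When the 4 libraries that stood apart were left out, Olig1, Tdpoz3, Gm9964 and Gm10638 passed (limma, adjusted p = 0.00846, 0.0254, 0.0364 and 0.0409) and Exoc8 did not (limma, adjusted p = 0.139).

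Genes at large also differed between the fractions, and the cause was not tested. The median polysome minus RNP difference of all genes was 1.01 in pachytene spermatocytes, 0.65 in round and 0.71 in elongating spermatids. That of intronless genes was 0.63, 0.34 and 0.55, and below the median of all genes in each cell type, with spliced genes measured by another rule. The germ cell list had medians of 0.13, 0.10 and 0.69, and of 0.23, 0.27 and 0.69 without the pachytene and round replicate 2 libraries. With median-ratio scaling over 7039 genes, after which RNP values rose by 0.22 to 1.08 on the log2 scale and polysome values fell by 0.30 to 0.62, the medians of all genes were 0.18, 0.07 and 0.02 and those of intronless genes were 0.05, -0.06 and 0. Then 1 intronless gene passed the test in pachytene spermatocytes, against 12, and the split of all calls went from 904 higher and 26 lower to 17 and 10.

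**Figure D3:**
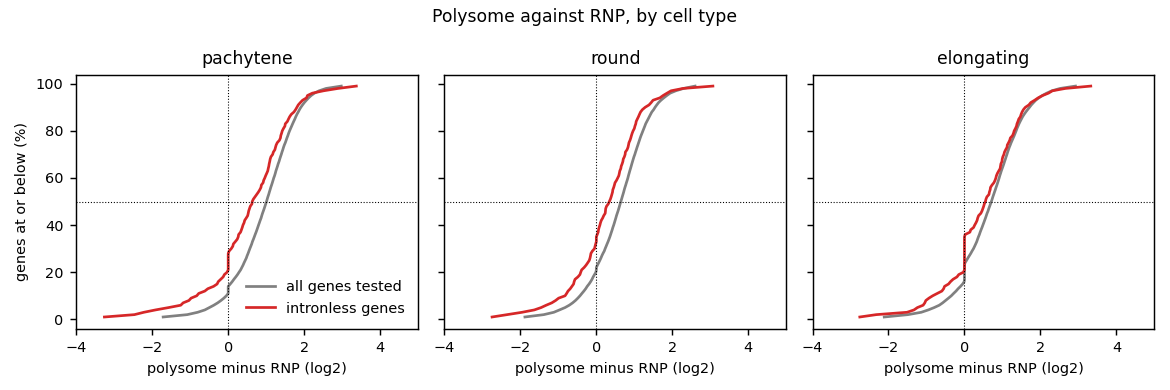
Distribution of the polysome minus RNP difference in log2(FPKM + 1) for the 396 intronless genes and for all 14665 genes tested, in each cell type, as cumulative curves. The curve of intronless genes lies to the left of that of all genes at 96, 98 and 92 of 99 percentiles in pachytene, round and elongating cells, with medians of 0.63 against 1.01 in pachytene spermatocytes.

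All 3 polysome libraries lay above all 3 RNP libraries for 60 intronless genes in pachytene spermatocytes (15.2%), where the background was 29.5%. The same held for 20 (5.05%) in round spermatids against a background of 14.4%, and for 117 (29.5%) in elongating spermatids against 36.9%. All polysome libraries lay below all RNP libraries for 7 (1.77%), 7 (1.77%) and 5 (1.26%), where the backgrounds were 0.634%, 0.743% and 1.79%. Without the replicate 2 libraries of these cells, the polysomes lay above for 117 (29.5%, all genes 48.8%) and below for 18 (4.55%, all genes 2.08%) in pachytene cells, and above for 103 (26.0%, all genes 42.5%) and below for 33 (8.33%, all genes 6.46%) in round cells. In all 3 cell types 9 intronless genes (2.27%) lay above, and 6.65% of all genes did. These 9 were Sf3b5, Ndnl2, 2310047M10Rik, Utp3, Pkdrej, Adrb1, Gm1337, 4922502B01Rik and 4933416C03Rik, which were chosen after their values were seen. Pkdrej makes a receptor-like protein of the sperm acrosome region and has a coding sequence of 6378 bases in its only exon (chr15:85645106-85652163, minus strand). It was at 11.8, 4.04 and 6.77 FPKM in pachytene RNPs and 28.5, 13 and 23.3 in polysomes, and at 7.68, 6.06 and 10.3 and 22.9, 30.8 and 24.5 in elongating spermatids.

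In round spermatids 0 intronless genes passed the test between fractions and 32 had an unadjusted p under 0.05 by limma, where 0.327% of all genes were called. In elongating spermatids 2 passed, against a background of 1.6%, and median-ratio scaling left 0 and moved the split of all calls from 203 higher and 31 lower to 36 and 32. The zinc finger gene Zfp850 was listed at 0 in RNPs and at 11.5, 72.4 and 2.51 FPKM in polysomes (limma, adjusted p = 0.0452), and 4930423O20Rik was listed at 0 and at 6.21, 5.45 and 20.4 (limma, adjusted p = 0.045). Zfp850 held its call in 14 of 31 alternative settings and 4930423O20Rik in 14 of 30, and either scaling and an FPKM minimum of 5 ended both calls. No intronless gene passed the test of whether the fraction difference changed from pachytene to elongating cells (17 had an unadjusted p under 0.05 by limma, and 0.0273% of all genes were called).

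In the fit without the pachytene and round replicate 2 libraries, more genes passed between fractions. In pachytene spermatocytes 36 intronless genes passed, 31 higher and 5 lower in polysomes, where the background was 12.3%. Utp3, for the processing of ribosomal RNA (1.64 ± 0.38, limma, adjusted p = 0.0274), Pkdrej (1.42 ± 0.38, adjusted p = 0.0406) and Pcbp1 (2.06 ± 0.57, adjusted p = 0.0435) were among them. In elongating spermatids 25 passed, 23 of them higher, where the background was 7.58%. Among these were Spaca4, a membrane protein gene of the sperm acrosome (1.97 ± 0.46, limma, adjusted p = 0.0352), Tbcc, a cofactor of tubulin folding (1.43 ± 0.32, adjusted p = 0.0317), and Pkdrej (1.60 ± 0.31, adjusted p = 0.0252). Spaca4 was at 44.4, 44.8 and 43.4 FPKM in elongating RNPs and 146, 175 and 212 in polysomes, and Tbcc at 18.8, 16.9 and 23.4 and at 53.8, 44.9 and 66.2, with no overlap for either.

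Between cell types the polysome comparison of elongating spermatids with pachytene spermatocytes gave the most calls: 25 intronless genes, 17 of them higher in elongating spermatids and 8 lower. That is 6.31% of those tested, where the background was 5.91%. All 3 elongating libraries lay above all 3 pachytene libraries for 93 intronless genes (23.5%, background 15.9%) and below for 58 (14.6%, background 22.8%). Without the pachytene and round replicate 2 libraries these were 97 (24.5%, all genes 18.7%) and 70 (17.7%, all genes 25.8%). When the 4 libraries that stood apart were left out, 58 passed, 42 higher and 16 lower, and the background was 10.2%. The number also moved with single libraries: it was 44 without round RNP replicate 2 or round polysome replicate 2 (9.15% and 9.61% of all genes). It was 5 (1.06%) and 9 (1.42%) without pachytene polysome replicates 2 and 3, and 6 (1.36%), 10 (1.93%) and 5 (1.4%) without elongating polysome replicates 1, 2 and 3. The median difference was 0.08 for intronless genes and -0.24 for all genes. With median-ratio scaling 11 were called higher and 5 lower, and the split of all calls went from 450 higher and 416 lower to 388 and 190. This comparison was added after values of the data were seen. The cell types differed in Sertoli cell markers, which were at 171 to 1121 in summed FPKM in pachytene polysomes and 25.5 to 30.3 in elongating polysomes. The part of such cells in the genes that were lower in elongating spermatids was not tested, and a smaller number of cells and less RNA per cell cannot be told apart in these bulk samples.

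Apart from Oxct2b, the genes that rose included 4 on the X chromosome. 1700054O13Rik, a gene named by its cDNA clone (chrX:9424073-9424626, plus strand), was at 44.5, 0 and 7.98 FPKM in pachytene polysomes and 511, 406 and 657 in elongating polysomes, and rose by 6.12 ± 1.73 (limma, adjusted p = 0.048). Its neighbour 4930557A04Rik (chrX:9426829-9427380, plus strand) was at 14.6, 0 and 9.27 and at 202, 189 and 189, and rose by 5.16 ± 1.44 (limma, adjusted p = 0.0457). Gm5382 (chrX:13788274-13788782, plus strand) was at 15.4, 0 and 3 and at 163, 159 and 168, and rose by 5.35 ± 1.31 (limma, adjusted p = 0.0295). Zcchc13 (chrX:100825925-100827003, plus strand), the copy of the nucleic acid-binding Cnbp shown above, was at 7.4, 0 and 2.47 and at 85.1, 76.7 and 81.9, and rose by 4.74 ± 1.12 (limma, adjusted p = 0.025). In all 4 X-linked genes the replicate 2 libraries of pachytene and round cells were listed at 0 in both fractions, and no pachytene library reached an elongating one. Of 31 alternative settings, the call held in 25 for Gm5382 and Zcchc13 and in 14 for 1700054O13Rik and 4930557A04Rik.

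**Figure D4:**
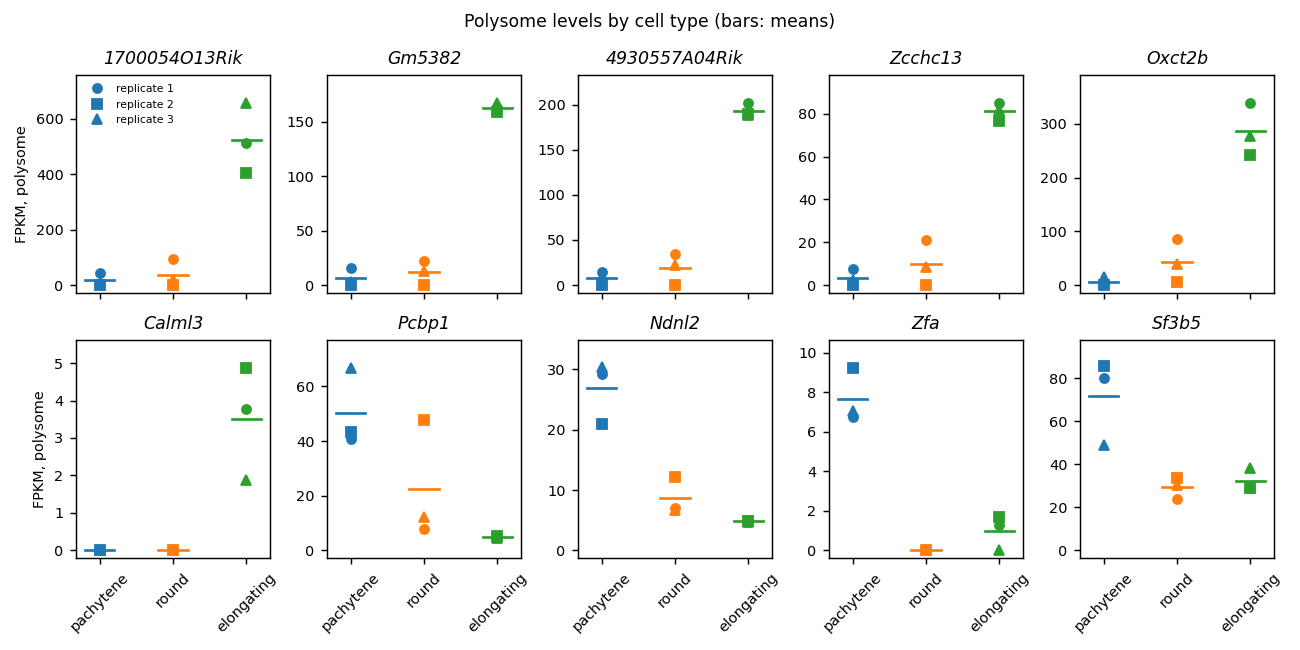
Polysome levels of intronless genes in the 9 polysome libraries, in FPKM, with 1 panel a gene, 1 point a library, shaped by replicate number, and bars at the group means. The elongating points lie above all pachytene points for the 4 X-linked genes, Oxct2b and Calml3, and below them for Pcbp1, Ndnl2, Zfa and Sf3b5.

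In the fit without the pachytene and round replicate 2 libraries, these rises remained past the threshold, at 4.67 ± 0.86 for 1700054O13Rik, 3.94 ± 0.47 for 4930557A04Rik, 4.34 ± 0.69 for Gm5382 and 3.93 ± 0.50 for Zcchc13 (limma, adjusted p = 0.0094, 0.00178, 0.00508 and 0.0021). Of the 28 tested intronless genes on X, 4 were called in this comparison, each of them higher, and of the 368 others 13 were called higher and 8 lower. The median over genes of their group medians was 3.2 FPKM in pachytene polysomes, 3.56 in round polysomes and 1.63 in elongating polysomes, and 4.18, 3.74 and 3.78 for the others. A median of 0 was found for 16 of the 28 X-linked genes and 156 of the 368 others in pachytene RNPs, 7 and 101 in pachytene polysomes, 10 and 139 in round RNPs, 7 and 99 in round polysomes, 14 and 134 in elongating RNPs and 11 and 111 in elongating polysomes. X-linked genes made up 7.07% of the intronless genes tested and 4.17% of all genes tested.

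Pcbp1 and Ndnl2 fell. Pcbp1, a poly(C)-binding regulator of RNA in most cells (chr6:86474493-86476165, minus strand), was at 40.9, 43.2 and 66.9 FPKM in pachytene polysomes, 7.92, 47.7 and 12.1 in round polysomes and 4.86, 5.17 and 4.44 in elongating polysomes. It fell by 3.11 on the log2 scale from pachytene to elongating polysomes (SE 0.65, limma, adjusted p = 0.0152), and by 1.08, short of the threshold, when transcripts had to lie at least 90% in the exon. Ndnl2 was at 5.02, 4.95 and 4.72 in elongating polysomes and fell by 2.22 (SE 0.47, limma, adjusted p = 0.0152). Zfa (chr10:52262124-52265545, minus strand) was at 6.78, 9.23 and 7.04 in pachytene polysomes, listed at 0 in the 3 round libraries and at 1.28, 1.68 and 0 in elongating ones. It was the 1 intronless gene called between round and pachytene polysomes (limma, adjusted p = 0.0168), where the background was 0.157%, and it also fell from pachytene to elongating polysomes by 2.24 (SE 0.51, limma, adjusted p = 0.0212). Without the pachytene and round replicate 2 libraries the falls from pachytene to elongating polysomes passed for Pcbp1 (-3.20 ± 0.52), Ndnl2 (-2.39 ± 0.45) and Zfa (-2.11 ± 0.54; limma, adjusted p = 0.00574, 0.00986 and 0.033), and Zfa passed between round and pachytene polysomes (limma, adjusted p = 0.037).

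Low genes were called as well. Calml3, a calmodulin-like gene (chr13:3802139-3803564, minus strand), was listed at 0 in the polysomes of pachytene and round cells and at 3.77, 4.86 and 1.87 FPKM in elongating polysomes (limma, adjusted p = 0.0145 against pachytene and 0.0434 against round). It was 1 of 2 intronless genes called between elongating and round polysomes, where the background was 0.573%. The other was the single-exon gene annotated as Vps13d, which was at 8.42, 4.02 and 5.22 in round polysomes and listed at 0 in elongating ones (limma, adjusted p = 0.0433). The protocadherin gene Pcdhb3 was listed at 0 in pachytene polysomes and at 2.45, 7.2 and 3.53 in elongating ones (limma, adjusted p = 0.0364), and Krtap24-1, a keratin-associated protein gene, at 0 and at 3.48, 3.16 and 2.84 (limma, adjusted p = 0.0454). When the 4 libraries that stood apart were left out, Calml3 passed against pachytene (limma, adjusted p = 0.0141), and Pcdhb3 and Krtap24-1 did not (limma, adjusted p = 0.0625 and 0.0571).

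RNP levels were compared in the same way. From pachytene to round cells 0 intronless genes passed (14 had an unadjusted p under 0.05 by limma, background 0%), and from round to elongating cells 0 passed (42 had one, background 0.0818%). From pachytene to elongating cells 2 passed, where the background was 0.689%, and 35 (6.16% of all genes) passed without both round replicate 2 libraries. Fbll1, a relative of the nucleolar methyltransferase fibrillarin, was at 2.12, 0 and 0 FPKM in pachytene RNPs and 42.6, 60.3 and 5.56 in elongating RNPs, and rose by 4.15 ± 0.90 (limma, adjusted p = 0.0467), a call that was lost when only pieces of at least 200 nucleotides were counted and, at 3.88 ± 0.90, without the pachytene and round replicate 2 libraries (limma, adjusted p = 0.0667). Gm9964 was listed at 0 in elongating RNPs (limma, adjusted p = 0.0331), and without these libraries it missed the threshold (limma, adjusted p = 0.0693).

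The germ cell list had a higher median in elongating spermatids, and few of its genes passed the test. Its median log2 difference from pachytene to elongating cells was 2.76 in RNPs and 2.70 in polysomes, where the medians of all genes were 0 and -0.24. In the fit without the pachytene and round replicate 2 libraries, the list medians were 1.90 and 2.11. In polysomes 3 of the 25 were called higher and 1 lower, beside 5.91% of all genes called in either direction. All elongating libraries lay above all pachytene libraries for 14 and below for 1, beside 15.9% and 22.8% of all genes. The list was not chosen independently of these data. Without the pachytene and round replicate 2 libraries 11 of the 25 were called higher and 1 lower in this polysome comparison, beside 10.2% of all genes in either direction. Newly called were Spz1 (3.56 ± 0.82) and Oxct2a (3.52 ± 0.56; limma, adjusted p = 0.0221 and 0.00509), and Aldoart2, Znrf4, Ubl4b, Rnf148, Ubqlnl and Fam71a. H2afb1, which is no member of the list, also passed (4.10 ± 0.91, limma, adjusted p = 0.0195).

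Intronless genes of other tissues were mostly without a value, and so were intronless genes as a whole (1256 of 1790). Of 274 G protein-coupled receptor genes, which include receptors for pheromones, tastes and hormones, 259 had no value in any library and 6 were tested. Gpr62 had a value in all 18 libraries, from 2.27 FPKM to 43.5, and Adrb1, the beta-1 adrenergic receptor, was at 8.13, 6.33 and 14.4 in pachytene polysomes. Of 44 keratin-associated and cornified envelope genes 41 had no value, of 15 type I interferon genes 14, of 18 clustered protocadherins 15 and of 27 transcription factors of development 18. The share of the transcription factors was near that of all intronless genes.

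Of the 8 developmental transcription factors tested, 5 had their highest polysome level in a pachytene library and 3 in a round one, and of the 9 immediate early genes 5 had it in an elongating library. Sox3, an X-linked factor that spermatogonia also make (chrX:58144545-58146605, minus strand), was at 1.08, 24.9 and 19.2 FPKM in pachytene polysomes, 3.9, 28.8 and 4.28 in round polysomes and 0.938, 0.997 and 1.18 in elongating polysomes. Sox11 was at 0, 8.74 and 8.35, then 9.08, 18.3 and 1.95, then 1.36, 3.54 and 2.48. Junb, of the AP-1 family of immediate early factors, was at 0, 18.7 and 16, then 4.41, 32.9 and 8.68, then 12.8, 5.55 and 6.21. For Sox3, Sox11 and Junb the highest pachytene and round polysome values were those of replicate 2, whose Sertoli cell sums were 921 and 2044. Pachytene polysome replicate 3, with a Sertoli sum of 1121, had the 3 genes at 19.2, 8.35 and 16, below replicate 2. Replicate 1, with a Sertoli sum of 171, had them at 1.08, 0 and 0. The sum of 6 spermatogonia markers was 31.6, 74.4 and 81.6 in pachytene polysomes, 48.5, 351 and 97.1 in round polysomes and 34.1, 54.7 and 56.4 in elongating polysomes. In polysomes from pachytene to elongating cells 1 of the 8 factors, Olig1, was called lower. Of 10 Sertoli cell markers 9 had a value in each of these replicate 2 libraries and 4 or 5 in the elongating ones. The part of other cell types in these values was not tested.

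Of the 19 housekeeping genes on the list 14 had a value and 11 were tested, and their median polysome difference from pachytene to elongating cells was -0.84. Pcbp1 was called lower and Exoc8, at 35.2, 28.3 and 31.4 FPKM in elongating polysomes, higher (limma, adjusted p = 0.0133). Hnrnpa0, an RNA-binding protein gene, was at 11925 FPKM in elongating RNP replicate 1 and between 13.7 and 159 in the 17 other libraries. Several means rested on such single values. Gm4787 was at 21832 in pachytene polysome replicate 1 and at most 62.4 elsewhere, Rraga, of the nutrient-sensing Rag GTPases, at 794 in pachytene RNP replicate 2 and at most 19.1 elsewhere, and Mcts2, a retrocopy of a translation factor, at 637 and 814 in the round replicate 2 libraries and at most 60.4 elsewhere. Gm2000 was assembled in 5 libraries only, at up to 176200. Gm3452, called in pachytene polysomes at 312, 368 and 150.1, was listed at 0 in all RNP libraries and had no test when pieces had to span at least 200 nucleotides.

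The upstream sequence of the intronless genes was searched on both strands for 4 motifs, from 250 bases before the annotated start to 50 after it. The cyclic AMP response element TGACGTCA, which CREB and the testis factor CREM bind, was found in 16 of the 396 tested genes (4.04%). It was in 44 of all 1790 intronless genes (2.46%) and in 1.83% of those without a value. Spliced protein-coding genes had it in 2.41% and all protein-coding genes in 2.32%, and these sets, unlike the tested genes, were not filtered by level. Because this element is a known feature of spermatid promoters, the matches of 5 genes are shown with 11 bases on either side, in the direction of the gene, with the motif in capitals.
Znrf4 chr17:56651957-56651986, minus strand: atttatgacaaTGACGTCAtaaaggtcgga
Tbcc chr17:47027523-47027552, plus strand: atggagggagcTGACGTCAccgcagctggc
Tspyl4 chr10:34017183-34017212, plus strand: agctggtatccTGACGTCAcaggttgccat
Ndnl2 chr7:72017900-72017929, minus strand: cgccggcgacgTGACGTCAcgcgcgcgccg
Ier2 chr8:87186778-87186807, minus strand: tggtgttgcagTGACGTCActctcagtata
The matches lay 69, 36, 33, 35 and 45 bases before the start of the gene. The 5 genes did not move alike: Znrf4 was highest in elongating polysomes, Ndnl2 fell from pachytene to elongating polysomes, and the immediate early gene Ier2 was at 2.96, 16.4 and 7.47 FPKM in pachytene polysomes and 2.9, 1.63 and 1.28 in elongating polysomes. A match describes these letters and no bound site.

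The other motifs were counted in the same windows. The letters TATAAA were in 13.9% of the tested genes, 27.5% of those without a value and 11.0% of spliced genes. The GC box letters GGGCGG were in 38.1%, 11.1% and 47.8%, and CCAAT was in 38.9%, 37.8% and 37.8%. The median number of CpG per 100 bases was 3.67 in tested genes, 1 in those without a value and 4.67 in spliced genes. Over all 1790 intronless genes the shares were 23.3% for TATAAA, 18.7% for GGGCGG and 37.6% for CCAAT, and the CpG median was 1.33. The spliced genes were not filtered by level. The exon had a median length of 1688 bases in tested genes and 924 in those without a value, and the coding sequence one of 784.5 and 580.5. Of the 396, 110 (27.8%) overlap the span of a spliced gene on either strand, wholly or in part, and 60 overlap an exon of a spliced gene.

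Some zeros stand beside other assembled transcripts. Of the 7128 values of the 396 genes 2487 were 0, and of these 206 had a spliced transcript over the exon and a further 181 a longer single-exon transcript. H2afx, for the histone variant phosphorylated at DNA breaks and in the meiotic sex body (chr9:44142798-44144154, plus strand), was at 0, 317 and 0 FPKM in pachytene polysomes, and the replicates at 0 had spliced transcripts over the exon at 60.9 and 64. In round polysomes H2afx was at 73.4, 271 and 159 and in elongating polysomes at 62.9, 72.6 and 92.7. Its call from pachytene to elongating polysomes without the replicate 2 libraries rests on those zeros. Cypt12, a cysteine-rich testis gene, was at 0, 1775 and 1369 in elongating polysomes and had a spliced transcript at 1483 in the replicate at 0.

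**Figure D5:**
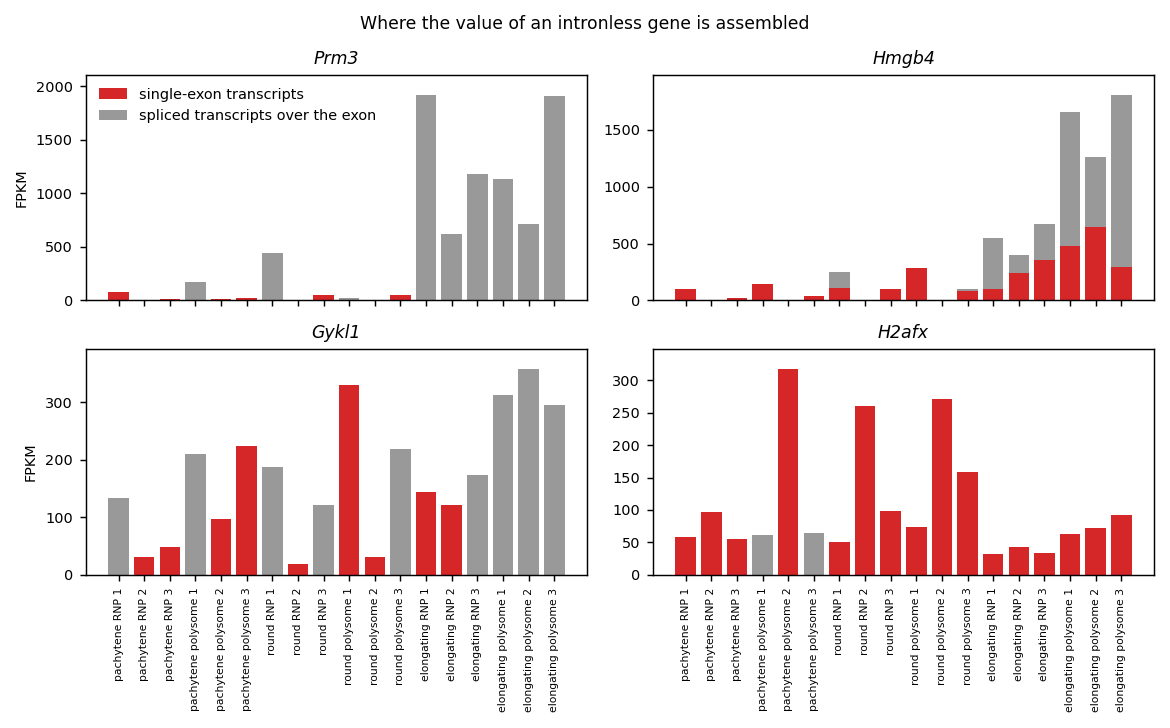
FPKM of single-exon transcripts and of spliced transcripts over the exon of intronless genes in the 18 libraries, as stacked bars that start at 0, with 1 panel a gene. H2afx has only the spliced bar in pachytene polysome replicates 1 and 3. Over all tested genes, 206 of 2487 values at 0 had a spliced transcript over the exon.

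Strand and overlap limit some values further. All FPKM of 296 tested genes came from transcripts on the gene's own strand, 95 had only transcripts without a strand, and 5 had both. The share of single-exon transcripts without a strand was 46.1 to 86.5% per library. B930036N10Rik and Refbp2 overlap on opposite strands of chromosome 1, and their values, up to 20801 and 7117 FPKM, are uncertain.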

How the data were processed

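The 18 libraries, made with a stranded kit, measure large RNA of RNPs and polysomes in 3 germ cell types. Per the labels the submitters used TopHat and Cufflinks on mm9. Versions are not given in the sources used here. The deposited transcript files of the authors hold, for each library, assembled transcripts with their FPKM, not scaled between libraries and without counts, so depth and counting error are unknown. Cells came from pooled testes, and neither the independence of the replicates nor the meaning of their numbers is given in the sources used here. p-values thus measure the spread between these samples.

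The level of an intronless gene was the summed FPKM of single-exon transcripts with at least 50% of their length in its exon, on its strand or without one. Pieces of 1 gene therefore add up, and 18 transcripts counted for 2 or more genes. Spliced genes took the summed FPKM of spliced transcripts that shared an annotated intron. Each such transcript went to the gene with the most shared introns. A missing transcript was 0. Genes that reached 1 FPKM in 3 libraries or more were fitted on log2(FPKM + 1) with limma 3.58.1 in R 4.3.3, with 6 group means and a trended variance. p-values were adjusted by Benjamini and Hochberg over all 14665 genes, and calls were made at 0.05. The fit was checked on simulated data. Deviations of same-numbered libraries from their group means correlated above 0.1 in all 3 pairs in 2 comparisons only. These were both fractions of round spermatids (0.53, 0.66 and 0.20) and the RNPs of pachytene and round cells (0.40, 0.60 and 0.12). In each of them 4 of the 6 libraries correlated best with their own number, and a shared preparation is not established. No 2 libraries held identical values. Genes named in the text were the 30 highest by mean FPKM, up to 8 called in each direction of a comparison and, where fewer than 4 were called, up to 4 whose groups did not overlap and whose higher group had a mean of at least 5 FPKM, and up to 6 of each list. Others are named as members of a pair or of a count, or were picked outside this rule, such as D1Pas1, Rraga, Rnf148, Dnajb7 and Rimbp3. Mcts2 had been caught by a prefix of the receptor list and was taken out, since it is no receptor. The 1790 genes and the 8 gene lists were chosen with earlier results of these data known, and the comparisons of elongating with pachytene cells were added after values were seen. Sequences were read from the NCBIM37 genome, which is mm9, at GENCODE coordinates, and aligned with Biopython 1.88. The 31 alternatives covered scaling, filters, pseudocount, assignment rules, the replicate block and left-out libraries, of which 28 were planned. Not planned were the fit without the pachytene and round replicate 2 libraries, the one with spliced and longer transcripts added and the one with pieces of at least 200 nucleotides.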

Additional observations from a re-analysis of the deposited data

Results flagged for a closer look

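2010109K11Rik lay lower in polysomes than in RNPs in every round spermatid library and higher in every elongating one. Its values were 7.38, 9.43 and 8.02 FPKM in round RNPs and 3.76, 4.68 and 6.59 in round polysomes, a log2 difference of -0.65, and 2.09, 2.62 and 4.3 in elongating RNPs and 30.7, 16.8 and 11.8 in elongating polysomes, a log2 difference of 2.31. The difference between the cell types was not tested.

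Spliced transcripts over the exon, which the levels above leave out, are given here for a pair of genes listed at 0 throughout a group. Genes with a value had abundant ones too, such as Hmgb4 and Cypt12 above. Prm3, a protamine family gene that is listed at 0 by the single-exon rule in the 6 elongating libraries, had spliced transcripts at a mean of 1242 FPKM in elongating RNPs (622 to 1920) and 1252 in elongating polysomes (713 to 1913). Gykl1, a further glycerol kinase copy that is listed at 0 in elongating polysomes, had them there at a mean of 322 (296 to 357).

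Single-exon transcripts on the strand opposite to the gene were found for 39 of the 1790 intronless genes. The highest FPKM in any library was 235 for Ccdc54, in 16 libraries with such a transcript, 66.3 for A730015C16Rik in 9, 34.8 for 9330171B17Rik in 17, 21.7 for 4930500M09Rik, 21.3 for 1700024N20Rik and 21.0 for 1700069B07Rik. How strand was assigned to single-exon transcripts is not given in the sources used here.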

How the results depend on the processing

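The number of intronless genes called moved by more than 1.5 times under these settings, and the causes were not tested. The share of all genes called in the same setting stands in brackets. Between the fractions of pachytene spermatocytes (12 called, 6.34%) it was 1 with median-ratio scaling (0.184%), 1 with quantile normalization (0.143%), 4 with only the libraries compared (0.961%), 39 without both round replicate 2 libraries (17.6%) and 36 without those of pachytene and round cells (12.3%). Between the fractions of round spermatids (0, 0.327%) it was 4 (0.675%) and 10 (1.21%) in these last cases. Between the fractions of elongating spermatids (2, 1.6%) it was 0 with either scaling (0.464% and 0.266%) and with an FPKM minimum of 5 (1.56%), 6 with a pseudocount of 0.1 (2.48%), 55 with only the libraries compared (15.9%), 1 with the same strand only (1.26%), 5 with at least 90% in the exon (1.42%), 1 with pieces of at least 200 nucleotides (1.22%), and 12 (5.03%) and 25 (7.58%) without the replicate 2 libraries. In polysomes, round against pachytene (1, 0.157%) gave 0 with median-ratio scaling (0.0955%) and with only the libraries compared (0%), 2 at 90% (0.186%), and 6 (0.661%) and 12 (1.3%) without the replicate 2 libraries. Elongating against round (2, 0.573%) gave 0 with either scaling (0.293% and 0.211%), the FPKM minimum (0.115%) and only the libraries compared (0.136%), 1 at 90% (0.523%), 5 with 200 nucleotides (0.563%), and 4 (0.266%) and 10 (0.661%). Elongating against pachytene (25, 5.91%) gave 16 (3.94%) and 16 (3.5%) with the scalings, 14 with the FPKM minimum (4.64%), 72 with only the libraries compared (15.2%), and 74 (15.8%) and 58 (10.2%). In RNPs, elongating against pachytene (2, 0.689%) gave 8 with median-ratio scaling (2.9%), 1 with the same strand only (0.659%), 0 with 200 nucleotides (0.549%), and 35 (6.16%) and 5 (1.03%). The change of the fraction difference (0, 0.0273%) gave 1 with only the libraries compared (0.0886%) and 1 without the pachytene and round replicate 2 libraries (0.327%). At 90% in the exon the elongating minus pachytene polysome difference turned to -1.33 for Oxct2b and -2.49 for 4930571K23Rik.

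A replicate block gave 25 (12%) and 5 (3.2%) calls between the fractions of pachytene and elongating cells, 1 (0.416%) in RNPs and 30 (4.32%) in polysomes of elongating against round cells, and 31 (5.43%) and 58 (13.1%) in RNPs and polysomes of elongating against pachytene cells, where the numbers were not shown to pair the libraries. It changed no other number by over 1.5 times. All 6 libraries correlated best with their own number between the elongating fractions and between the polysomes of elongating and round cells, a hint from the data and not from the design.

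Leaving out 1 replicate gave 0 to 26, 0 to 4 and 0 to 5 calls between the fractions of pachytene, round and elongating cells. In RNPs it gave 0 to 0 for round against pachytene, 0 to 1 for elongating against round and 0 to 5 for elongating against pachytene. In polysomes it gave 0 to 3, 0 to 18 and 5 to 44 for the same comparisons, with 18 without round polysome replicate 1 (2.38%), and 0 to 1 for the change of the fraction difference. Without counts, the limit set by depth is unknown.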

Other observations

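A further 5 intronless genes, chosen after their values were seen, were higher in every elongating polysome library than in every pachytene one, as were 15.9% of all genes. Spanxn4, of the SPANX family of testis genes, was at 61.8, 11 and 16.3 FPKM in pachytene polysomes and 245, 182 and 190.3 in elongating polysomes. Kif2b, a kinesin of the microtubule-depolymerising family, was at 54, 11.5 and 34.2 and at 166, 154 and 129. Ddi1, of the retroviral-like protease family, was at 43.3, 9.31 and 14.3 and at 163, 120.4 and 161. Cct8l1, a relative of a chaperonin subunit, was at 23.8, 7 and 7.12 and at 65.3, 70.2 and 73.9. For these 4, without the pachytene and round replicate 2 libraries the elongating minus pachytene differences of 2.64 ± 0.65, 1.77 ± 0.49, 2.51 ± 0.64 and 2.32 ± 0.59 (log2, SE) passed the test (limma, adjusted p = 0.0297, 0.0449, 0.0337 and 0.0334, in the same order). Rimbp3, with a coding sequence of 4818 bases in its only exon and a role in the manchette of spermatids, was at 99.3, 40.1 and 66.3 in pachytene polysomes and 155, 134 and 112 in elongating polysomes.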
